A study of Mus musculus with 12 samples.

Results

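The genes that write, copy and remove DNA methylation were examined for binding of SOX2, a transcription factor that maintains pluripotency, in the mouse embryonic stem cell line E14. The set of 8 genes was chosen by name from 21887 protein-coding genes. It holds the de novo methylation genes Dnmt3a, Dnmt3b and Dnmt3l, the maintenance genes Dnmt1 and Uhrf1, and the TET genes Tet1, Tet2 and Tet3. For each gene, SOX2 regions were counted when their midpoint lay inside the gene or within 50 kb of either end, on the build mm10. Of the regions in the lists, 0 of 84 mitotic and 13 of 10351 asynchronous ones met this rule.

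The study had 12 libraries in 4 groups of 3 replicates: a SOX2 ChIP group and an input DNA group of mitotic cells, and the same pair of groups of asynchronous cells. Mitotic cells were E14 cells held overnight in the microtubule poison nocodazole, after which fixed and stained cells positive for H3S10p (a phosphorylated histone H3 found on condensed chromosomes) were sorted. Asynchronous cells were E14 cells from the same culture conditions, with no arrest or sort named in the labels. All cells grew on gelatin in serum medium (10%) that held leukemia inhibitory factor and blockers of GSK3 (CHIR99021, 3 μM) and of MEK (PD184352, 0.8 μM). Each condition gave 1 list of regions from its pooled replicates, so no value below has a replicate error and no test over samples could be made. Depth is unknown, and the mitotic list carried the looser threshold tag (0.05, against 0.01 for the asynchronous list). As a check of the label, the stem cell genes Sox2, Pou5f1, Nanog and Esrrb each had 0 mitotic regions within 50 kb, and they had 3, 6, 3 and 6 asynchronous regions in that order.

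DNMT3A and DNMT3B place methyl groups on unmethylated CpG, and DNMT3L is a catalytically inactive partner that stimulates them. DNMT1 copies methylation onto the new DNA strand after replication, brought there by UHRF1, which binds DNA methylated on only one strand. The TET enzymes oxidise methylcytosine, which leads to its loss by dilution or by base excision repair. In mouse embryonic stem cells TET1 and TET2 are the main TET enzymes, while TET3 is best known from the egg and the early embryo.

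All 8 genes had at least 1 asynchronous SOX2 region within 50 kb, and none had a mitotic one. Among all protein-coding genes, 0.836% had a mitotic region and 45.5% had an asynchronous region by the same rule. Of the 8 genes, 5 had 2 asynchronous regions and 3 had 1, and 18.4% of all protein-coding genes had 2 or more. The 13 asynchronous regions were distinct, with no region counted for more than one of the 8 genes. The count of 0 of 8 genes still allows a mitotic share as high as 37.5%, taking 3 counts as the limit of a 0, or 36.9% by the exact interval, so a difference from the mitotic background was not detectable with 8 genes. The asynchronous share was 100% (exact 95% interval 63.1 to 100%, which covers counting error only). Windows of longer genes hold more regions, and the 8 genes span 20.2 to 113 kb, against a median of 17.2 kb for all protein-coding genes. Pooled over windows, the 8 genes had 0.996 asynchronous regions per 100 kb, against 0.520 over all protein-coding windows.

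The 3 groups of enzymes differed in how many of their regions lay inside the gene. The TET genes had 6 regions, of which 5 lay inside the gene, and for all 6 the TET gene was the nearest protein-coding gene. A gene counts as nearest to any region inside it, so the inside and nearest counts are not independent. The de novo genes had 4 regions, 1 inside the gene, and a de novo gene was nearest to 2 of them. The maintenance genes had 3 regions, all upstream of the gene and all nearer to another gene. Over all 16857 pairs of a protein-coding gene and an asynchronous region within 50 kb, the region was inside the gene in 30.1% and the gene was the nearest one in 49.1%. A region inside the gene was found for 4 of the 8 genes, the TET genes and Dnmt3a, and for 14.7% of all protein-coding genes. The groups also differ in gene length. In classes of like span that share was 56.5% for Dnmt3a (the longest genes) and 29.6% for the TET genes. It was 18.5% for Dnmt1 and Dnmt3b, and 9.78% for Uhrf1 and Dnmt3l. With 3, 2 and 3 genes in the groups, these differences are described and were not tested.

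**Figure D1:**
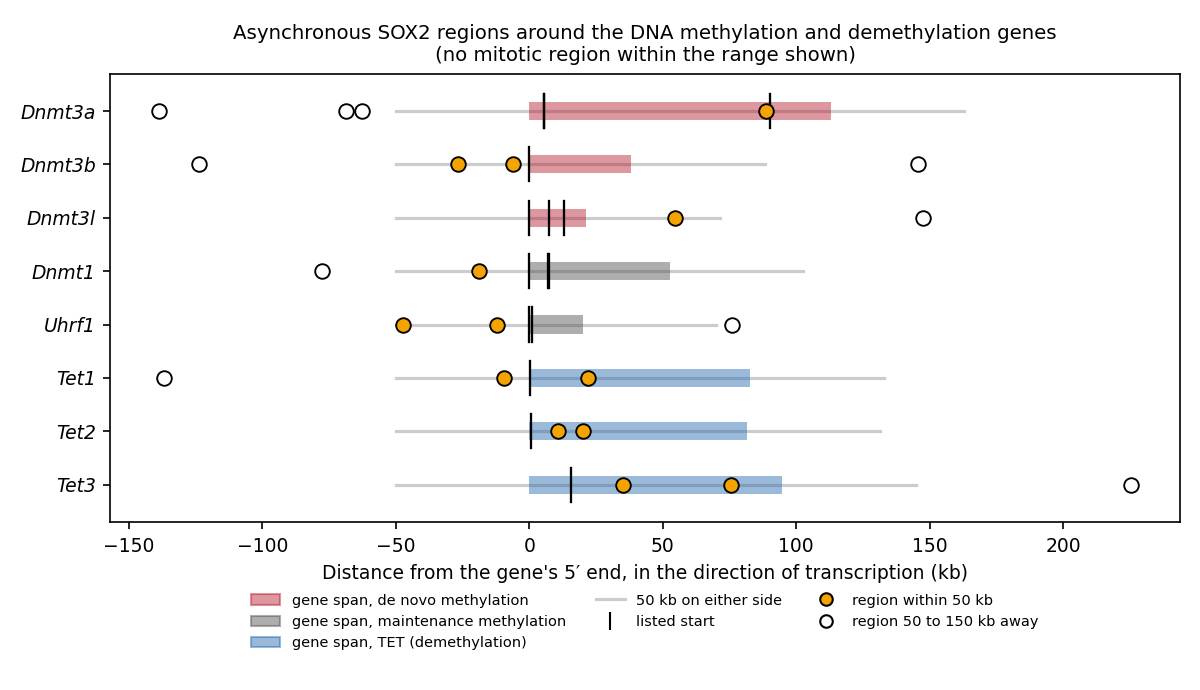
Positions of asynchronous SOX2 regions (circles) around the 8 genes, in kb from each gene's 5′ end along the direction of transcription; bars are gene spans, black ticks listed starts, grey lines the 50 kb on either side, and white circles regions 50 to 150 kb away. The 3 TET genes hold 5 regions inside their spans, while the 3 regions within 50 kb of Dnmt1 and Uhrf1 lie upstream.

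Among the de novo genes, Dnmt3a (chr12:3801559-3914443, plus strand) had 1 asynchronous region, at chr12:3889925-3890286. It was 362 bp wide, at percentile 70.9 of asynchronous widths, and lay inside the gene, 83.1 kb from the start listed first. A further start, at position 3891744 inside the gene, lay 1.64 kb downstream of the region. An internal start of Dnmt3a is known to give the short isoform that embryonic stem cells mostly make; the annotation used here does not name the isoform of each start. A region within 2 kb of a listed start was found for 1 of the 8 genes, Dnmt3a, and for 4.55% of the 17492 protein-coding genes with a listed start. No other protein-coding gene had the Dnmt3a region within 50 kb. Just beyond the window, regions lay 62.7 and 68.5 kb upstream of Dnmt3a, both inside Dtnb, a dystrobrevin gene.

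Dnmt3b (chr2:153649411-153687730, plus strand) had 2 regions, both upstream. The one at chr2:153643063-153643405 was 343 bp wide and lay 6.18 kb outside the gene, which was its nearest. The one at chr2:153622598-153622961 was 364 bp wide and lay 26.6 kb outside, inside Commd7, a COMM domain gene. They stood 20.5 kb apart, at percentiles 66.4 and 71.3 of asynchronous widths, and both were also in the window of Commd7. The neighbouring copy of Dnmt3b, known as Dnmt3c and active in the male germ line, is annotated here as the pseudogene Dnmt3b-ps1. It had 0 mitotic and 0 asynchronous regions within 50 kb, and its nearest asynchronous region was 63.2 kb away.

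Dnmt3l (chr10:78042287-78063622, plus strand) had 1 region, at chr10:78096734-78097010. It lay 33.2 kb beyond the 3′ end of the gene, the only one of the 13 regions that was downstream. Its nearest gene was Icosl, the ligand of a T cell costimulator, 17.3 kb away. The region was 277 bp wide, at percentile 45.7.

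Of the maintenance genes, Dnmt1 (chr9:20907206-20959888, minus strand) had 1 region, at chr9:20978412-20978744, 333 bp wide and at percentile 63.7. It lay 18.7 kb upstream of the outermost listed start of Dnmt1 and 1.78 kb from S1pr2, a sphingosine phosphate receptor. It was also in the windows of Icam1, an adhesion molecule, and Mrpl4, a mitochondrial ribosomal protein. The next region upstream, inside Icam5, was 77.8 kb from Dnmt1.

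Uhrf1 (chr17:56303337-56323486, plus strand) had 2 regions upstream, 35.3 kb apart. The nearer one, chr17:56291196-56291423, lay 12.03 kb from Uhrf1 and 0.798 kb from Plin3, a lipid droplet protein. The further one, chr17:56255896-56256102, lay 47.3 kb from Uhrf1, just inside the window, and 0.794 kb from Fem1a, an adaptor of a ubiquitin ligase. They were 228 and 207 bp wide, at percentiles 25.9 and 16.1, and each was in the windows of 6 genes, among them Arrdc5, Fem1a, Plin3 and Ticam1 in both cases. A region inside Kdm4b, a histone demethylase gene, 55.9 kb downstream of Uhrf1, fell just outside the window. When a region was counted only for its nearest gene, or within 10 kb of the span, neither Dnmt1 nor Uhrf1 had one. Dnmt3l also lost its region by both rules, which left 5 of the 8 genes, against 23.5% of all protein-coding genes by nearest gene and 23.8% within 10 kb.

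Among the TET genes, Tet1 (chr10:62804570-62887469, minus strand) had 2 regions, 31.6 kb apart. One was inside the gene, at chr10:62865346-62865573, 21.9 kb downstream of the listed start, 228 bp wide and at percentile 25.9. The other was at chr10:62896952-62897245, 9.77 kb upstream of the start, 294 bp wide and at percentile 51.4. Tet1 was the nearest gene of both, although Dna2, a nuclease and helicase of DNA replication, and Slc25a16 also had the upstream one in their windows.

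Tet2 (chr3:133463677-133545136, minus strand) held both of its regions inside the gene, 9.42 kb apart. The wider one, chr3:133524666-133525085, was 420 bp wide, at percentile 81.7, and lay 19.5 kb downstream of the listed start. It was the only one of the 13 with 2 listed summits. The other, chr3:133534143-133534454, was 312 bp wide, at percentile 57.2, and lay 10.1 kb downstream of the start. No other protein-coding gene had either region within 50 kb.

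Tet3 (chr6:83362373-83457208, minus strand) also held both regions inside the gene, 40.4 kb apart. The region at chr6:83421715-83422298, 19.7 kb downstream of the listed start, was 584 bp wide, at percentile 96.3. The region at chr6:83381485-83381667, 60.1 kb downstream, was 183 bp wide, the smallest width in the asynchronous list, and was also in the windows of Bola3 and Mob1a. Tet3 therefore had both the widest and the narrowest of the 13 regions.

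The TET genes were set beside protein-coding genes of like span. In the class of 57.1 to 109 kb that holds all 3 of them, 56.5% of 2189 genes had an asynchronous region within 50 kb and 26.2% had 2 or more. A region inside the gene was found for 29.6% of that class, and 2 or more inside for 8.22%, the level of Tet2 and Tet3. Dnmt3a fell in the class of the longest genes, where 71.2% had a region in the window and 56.5% had one inside. That class runs from 109 to 2390 kb, and Dnmt3a, at 113 kb, is near its lower end. Its class is therefore a loose match for span. For Dnmt1 and Dnmt3b, in the class of 35.9 to 57.1 kb, 51.8% of 2188 genes had at least 1 region, 19.6% at least 2 and 18.5% one inside. For Uhrf1 and Dnmt3l, in the class of 17.2 to 24.6 kb, the shares were 44.9%, 15.7% and 9.78% in that order.

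The widths of the 13 regions had a median of 312 bp, against 289 bp for all asynchronous regions, and 8 of the 13 were wider than that list median. De novo regions spanned 277 to 364 bp, maintenance regions 207 to 333 bp and TET regions 183 to 584 bp, so the groups overlapped. Widths say nothing of how strongly SOX2 bound, and they were compared only within the list.

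**Figure D2:**
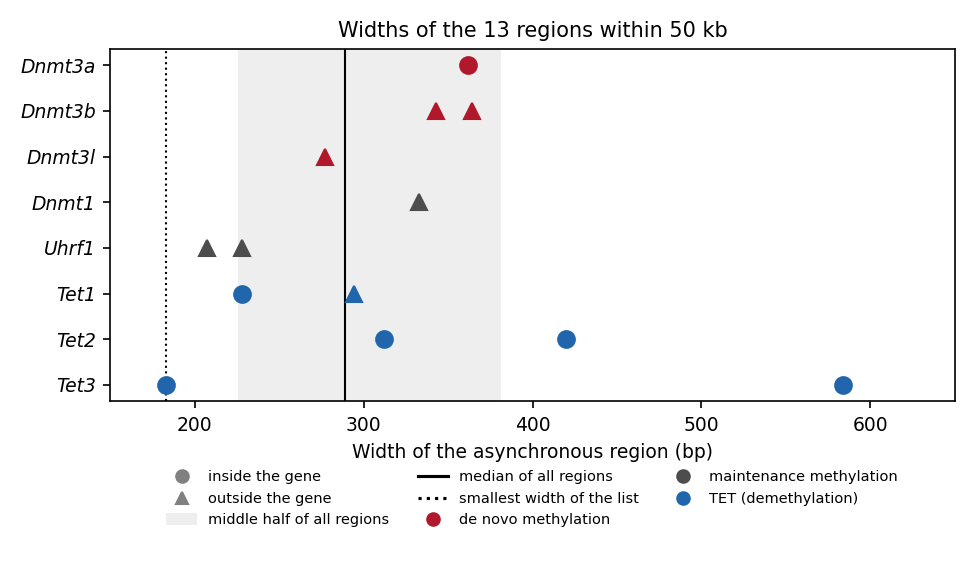
Width in bp of each of the 13 asynchronous regions by gene, with circles for regions inside the gene and triangles for regions outside; the grey band holds the middle 50% of all asynchronous regions (226 to 381 bp) and the solid line their median of 289 bp. Tet3 has both the widest region, 584 bp, and the narrowest, 183 bp.

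The mitotic list held no region close to any of the 8 genes. The nearest mitotic region was 2.49 Mb from Dnmt3l, 4.80 Mb from Tet3 and 6.78 Mb from Uhrf1. It was 9.39 Mb from Dnmt3b, 14.3 Mb from Dnmt3a, 16.6 Mb from Tet2, 17.7 Mb from Tet1 and 49.0 Mb from Dnmt1. Over all protein-coding genes this distance had a median of 9.35 Mb and quartiles of 3.50 and 22.3 Mb, a range that held 6 of the 8 genes, with Dnmt3l below it and Dnmt1 above. The nearest asynchronous region was inside the gene for Dnmt3a, Tet1, Tet2 and Tet3, and 6.18 to 33.2 kb away for the others, against a median of 62.0 kb over all genes.

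**Figure D3:**
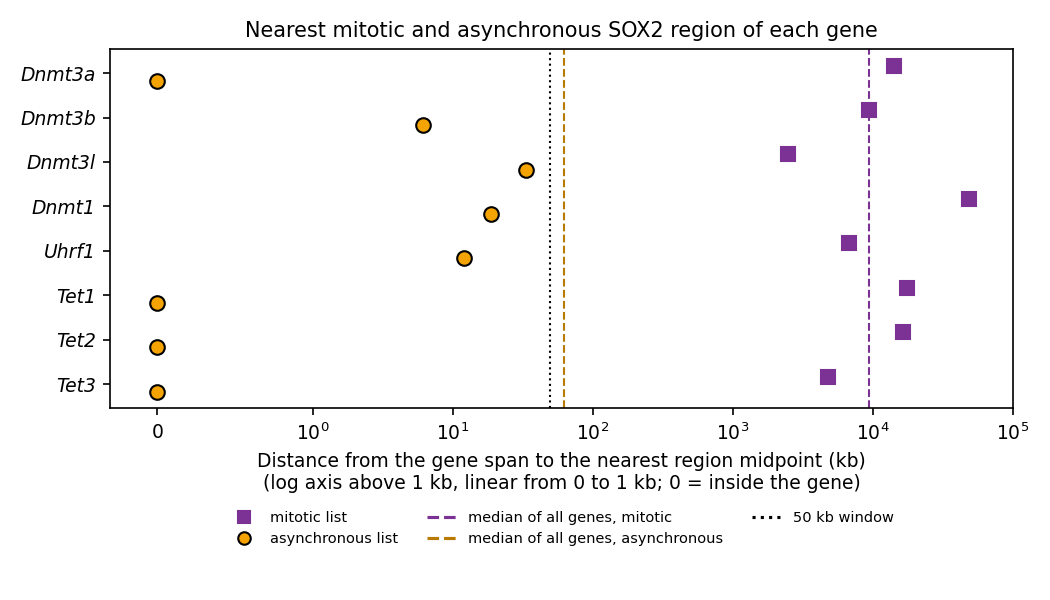
Distance in kb from each gene to the nearest mitotic region midpoint (squares) and the nearest asynchronous one (circles), on an axis that is logarithmic above 1 kb and linear below; dashed lines are the medians of all protein-coding genes and the dotted line the 50 kb window. Mitotic distances run from 2.49 to 49.0 Mb, while asynchronous distances are all under 50 kb and are 0 for 4 genes.

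None of the 15 listed starts of the 8 genes had a region over its promoter window, the 250 bases before and 50 from the start on. Of all protein-coding genes with a listed start, 0.0114% had a promoter window overlapped by a mitotic region and 1.95% one overlapped by an asynchronous region. The windows were searched on both strands for CATTGT and CTTTGT, letters of SOX motifs, for ATGCAAA, of the OCT motif bound by POU5F1, and for a SOX motif, 1 base of any kind and the OCT motif in a row. No window of the 8 genes held CATTGT, which was in 11.0% of the 21263 windows of protein-coding genes. None held the OCT letters, which were in 4.23% of all windows, or a composite, which was in 2 windows with the first SOX motif and 1 with the second. CTTTGT was in 2 of 15 windows, against 16.8% of all. Either SOX motif was in the same 2 of 15, against 25.7% of all. These were the windows of the internal start of Dnmt3a and of the start of Dnmt3l nearest to its 3′ end. The Dnmt3a start lay 1.64 kb downstream of the region, which did not overlap its window, so these letters are outside the region. The 2 windows are shown 5′ to 3′ on the plus strand, from RefSeq on GRCm38.p6, at chr12:3891494-3891793 and chr10:78055085-78055384, with the SOX letters (ACAAAG where the match is on the other strand) in capitals.
Dnmt3a, internal start: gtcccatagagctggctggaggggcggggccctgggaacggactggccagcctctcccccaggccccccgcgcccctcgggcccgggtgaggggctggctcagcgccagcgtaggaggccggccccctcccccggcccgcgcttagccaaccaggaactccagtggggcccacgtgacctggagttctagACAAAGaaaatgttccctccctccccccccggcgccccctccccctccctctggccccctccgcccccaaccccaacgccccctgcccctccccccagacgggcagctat
Dnmt3l, start nearest the 3′ end: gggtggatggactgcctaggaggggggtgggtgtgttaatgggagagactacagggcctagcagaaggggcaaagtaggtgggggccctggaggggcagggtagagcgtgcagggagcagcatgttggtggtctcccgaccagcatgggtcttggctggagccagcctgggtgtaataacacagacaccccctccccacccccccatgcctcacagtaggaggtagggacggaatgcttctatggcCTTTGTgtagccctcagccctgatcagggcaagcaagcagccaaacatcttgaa

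CpG content, the target of these enzymes, differed widely between the windows of the 8 genes. It ran from 2 CpG at the outermost start of Dnmt1 to 57 at Tet2, against a median of 13 over all windows (quartiles 4 and 24). The start of Tet1 had 17, that of Tet3 had 22 and that of Dnmt3b had 30. The further starts of Dnmt1 had 12 and 33, and the starts of Uhrf1 also had 12 and 33. The starts of Dnmt3l had 6, 4 and 3, and the outer starts of Dnmt3a had 46 and 47 against 18 at the internal start. The extremes are shown 5′ to 3′ on the minus strand, at chr3:133544341-133544640 and chr9:20959839-20960138, with each CpG in capitals.
Tet2: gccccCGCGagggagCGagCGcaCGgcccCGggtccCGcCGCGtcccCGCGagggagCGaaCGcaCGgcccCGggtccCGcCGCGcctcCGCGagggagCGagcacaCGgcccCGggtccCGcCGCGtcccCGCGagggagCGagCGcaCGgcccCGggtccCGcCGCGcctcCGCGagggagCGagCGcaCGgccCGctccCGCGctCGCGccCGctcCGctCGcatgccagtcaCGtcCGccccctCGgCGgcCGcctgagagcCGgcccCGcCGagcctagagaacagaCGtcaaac
Dnmt1, outermost start: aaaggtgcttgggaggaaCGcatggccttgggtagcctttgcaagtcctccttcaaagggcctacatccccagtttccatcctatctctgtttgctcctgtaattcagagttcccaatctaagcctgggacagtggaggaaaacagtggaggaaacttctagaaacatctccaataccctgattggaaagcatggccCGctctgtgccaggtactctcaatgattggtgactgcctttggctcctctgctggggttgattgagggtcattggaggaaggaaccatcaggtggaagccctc

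Other genes of the pathway were counted in 5 lists, of which 42 genes were matched to protein-coding genes. None had a mitotic region within 50 kb, against 0.836% of all protein-coding genes. This still allows a share as high as 7.14% (3 counts of 42), so a difference from that background was not detectable. An asynchronous region was found for 26 (61.9%, exact 95% interval 45.6 to 76.4%), against the background of 45.5%. Within 10 kb, 14 of the 42 had a region, against 23.8% of all protein-coding genes. Only 4 of the 42 had one inside the gene, against 14.7%. These shares were not set beside genes of like span. Apobec1 and Dppa3 shared their region, so the genes are not all independent. The lists hold 5 to 12 genes each, their intervals overlap, and differences between them were not tested. Of 7 readers of methylated DNA, 2 had a region, Mbd2 and Mbd3, with 1 each. Of 6 cofactors and regulators of TET enzymes, 2 had one: Idh2, a mitochondrial source of the TET cosubstrate, with 3, and Ogt, a glycosyltransferase that binds TET proteins, with 1. The regions of Idh2 were nearest to Zfp710, Idh2 and Sema4b. Those of Mbd2, Mbd3 and Ogt were nearest to Poli, Mex3d and Cxcr3.

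Base excision and deamination genes had a region in 9 of 12 cases. Smug1, a uracil glycosylase, and Xrcc1, a repair scaffold, had 3 each, and 1 of those of Smug1 was inside the gene. Smug1 was the nearest gene of all its regions, while all those of Xrcc1 were nearer to Zfp428. Tdg, the glycosylase that removes TET products, had none and was 118 kb from the nearest. Cofactors and regulators of methylation had a region in 8 of 12 cases. Prdm14, a repressor of de novo methylation genes in naive cells, Trim28, a corepressor at imprinted loci and retroelements, and Usp7, a deubiquitinase that stabilises UHRF1 and DNMT1, had 3 each, as did Zfp57, which keeps methylation at imprinted loci. The regions of Prdm14 were all nearest to Prdm14, and those of Usp7 to Usp7 or Pmm2. Those of Trim28 were nearest to Zbtb45, Gm31649 and Mzf1, and those of Zfp57 to H2-M5. All 5 genes of methyl donor supply had a region, with 2 at Mat2b and 1 each at Ahcy and Mat2a, which make and clear S-adenosyl compounds. Ahcy and Mat2a were nearest to their regions, while those of Mat2b were nearer to Hmmr and Nudcd2. Genes with the same pair of counts as Dnmt3a, Dnmt3l and Dnmt1, 0 mitotic and 1 asynchronous, were 14 in these lists and 26.8% of all protein-coding genes. Those with the pair of Dnmt3b, Uhrf1 and the TET genes, 0 and 2, were Ehmt2, Gadd45a, Mat2b, Neil1 and Parp1, and 10.8% of all protein-coding genes. The match is over 2 lists only.

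**Figure D4:**
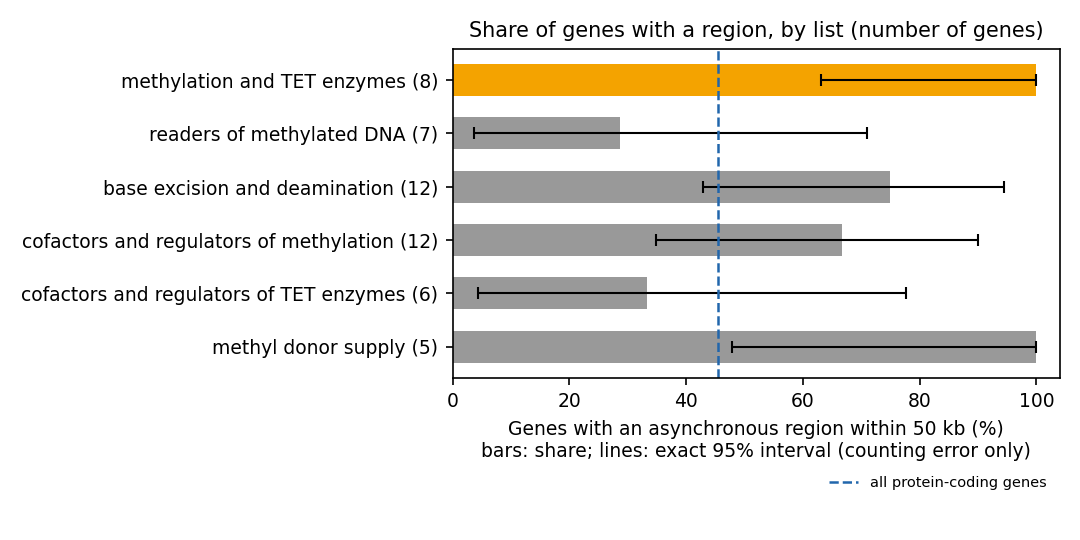
Percent of genes with an asynchronous region within 50 kb for the 8 methylation and TET genes and for 5 other pathway lists, with exact 95% intervals (counting error only) and the 45.5% of all protein-coding genes as a dashed line. The 8 genes and the 5 methyl donor genes are at 100%, and readers of methylated DNA are lowest at 28.6%.

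Of the 33 listed pathway genes with a promoter window, 2 had one under an asynchronous region, Gadd45a and Smug1, beside 0 of the 8 enzymes and the 1.95% of all protein-coding genes. The difference between these small counts was not tested. Gadd45a is a stress gene that has been linked to DNA demethylation. Its region, chr6:67037327-67037590, was 264 bp wide and covered 233 of the 300 bases of the promoter window, chr6:67037358-67037657, shown 5′ to 3′ on the minus strand with the covered bases in capitals. These bases held CTTTGT once and the OCT letters ATGCAAA once on each strand, but no composite of the SOX and OCT letters. Of all promoter windows, 16.8% held CTTTGT and 4.23% the OCT letters. The letters of the Smug1 window are not given here, and whether SOX2 binds at these letters was not tested.
Gadd45a: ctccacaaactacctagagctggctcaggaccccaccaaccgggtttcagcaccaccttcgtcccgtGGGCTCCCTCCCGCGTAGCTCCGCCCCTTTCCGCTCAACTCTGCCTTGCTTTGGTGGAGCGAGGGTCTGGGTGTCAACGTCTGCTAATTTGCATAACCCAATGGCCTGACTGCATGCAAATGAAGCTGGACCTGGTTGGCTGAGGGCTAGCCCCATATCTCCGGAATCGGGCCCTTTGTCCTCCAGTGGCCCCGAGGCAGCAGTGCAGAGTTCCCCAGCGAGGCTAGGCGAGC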

How the data were processed

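SOX2 ChIP and input libraries came from mitotic and asynchronous E14 cells. Per the submitters' processing notes, Bowtie2 2.2.1, MACS2 (no version given in the sources used here) and mm10 were used. Per the deposited names, the authors called peaks once per condition on 3 pooled replicates and took out blacklisted regions. The deposited lists hold only positions in bp (unit: other) and a name. The highest peak numbers, 131 mitotic and 15590 asynchronous, leave 47 and 5239 numbers that are not in the lists used here.

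Starts were converted to count from 1, and 181 repeated asynchronous entries, which differed in summit, were merged. Genes and promoter windows came from RefSeq on GRCm38.p6, of which mm10 is another name. Counts were made in Python 3.11.15 with numpy 2.4.6 and pandas 2.3.3 and tested on simulated regions. Exact (Clopper-Pearson) intervals used scipy 1.17.1 at 95%. Region sequence was not used here, except where a region covered part of a promoter window, and exons were not used. Of the planned pathway genes, Dnmt3c matched no protein-coding gene. Like spans are 10 classes of equal gene number. The members and lists were chosen with earlier results of these data known, and the sequences shown were chosen after their values were seen. Named pathway genes were to have a mitotic region (none did), the most asynchronous regions of their list (up to 3 genes, ties by symbol) or the same pair of counts as a member; Tdg, Zfp57 and the neighbours beyond 50 kb were named after their values were seen.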

Additional observations from a re-analysis of the deposited data

How the results depend on the processing

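Each of 10 counts was recomputed under 8 alternatives: windows of 10, 25 and 100 kb, any overlap in place of the midpoint, distance from listed starts, nearest gene only, regions wider than their list's median, and entries not merged. Of 80 values, 68 were equal to the reported count or within 1.5 times of it, and all 40 mitotic values were 0. The 12 that moved were all asynchronous. Only the 100 kb window and any overlap could have raised a mitotic count, so most of the mitotic values were fixed by the main count of 0. The 13 asynchronous regions became 8 within 10 kb, 8 by nearest gene and 8 above the median width. Members with a region became 5 of 8 within 10 kb, against 23.8% of all protein-coding genes, and 5 of 8 by nearest gene, against 23.5%. The 4 de novo regions became 2 within 10 kb, 2 within 25 kb and 2 by nearest gene. The 3 maintenance regions became 0 within 10 kb, 0 by nearest gene, 1 above the median width and 5 within 100 kb. These shifts follow from the settings' own construction (a narrower or wider window, fewer regions, 1 gene per region). The 6 TET regions stayed within 1.5 times under all 8, and this too was largely fixed by construction. Of them 5 lay inside the gene, and the other was 9.63 kb from Tet1, its nearest gene. The narrower windows and the nearest gene rule could therefore drop none of them. Above the median width 4 were left, at the limit of 1.5 times, and by distance from listed starts 5. No paired analysis was possible because the replicates of each condition were pooled before peaks were called, and for the same reason no replicate could be left out. Some numbered peaks are not in the lists used here. Between the listed regions that flank each window, the asynchronous numbers missing were 0 at Tet1 and Tet3, 1 at Dnmt3a, 2 each at Dnmt3b, Dnmt1 and Uhrf1, 3 at Dnmt3l and 6 at Tet2. The mitotic numbers missing were 5 in the 1 interval that holds both Dnmt3l and Tet1, and 0 at Dnmt3b and Tet3; the other members lack a flanking mitotic region on one side. Whether those peaks lay inside the windows is not known.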

Other observations

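Each of the 3 TET genes had an asynchronous SOX2 region at a similar distance downstream of its listed start: 21.9 kb in Tet1, 19.5 kb in Tet2 and 19.7 kb in Tet3. The likeness depends on the start used for Tet3. Its only listed start, at position 83441678, lay well inside the gene, whose 5′ end is at 83457208. Measured from the 5′ end, the Tet3 region was therefore further away than those of Tet1 and Tet2, whose starts lay close to theirs. Among the 7474 protein-coding genes with a listed start and a span of at least 22 kb, 1.73% had a region 19 to 22 kb downstream of a start, and 0 of the 3 other members of that span did. The distance range was set around these positions after they were seen, so the TET genes met it by construction. The shares of other genes are therefore no test of a shared trait. The annotation used here does not say which exon or intron the regions fall in.

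Of the 7 regions outside the 8 genes, 6 were upstream and only that of Dnmt3l was downstream. Over all 9369 pairs of a region and a gene of known strand that it lay outside, 51.1% were upstream. The 6 regions belong to 4 genes, and 4 of the 6 were nearer to another gene (Commd7, S1pr2, Plin3 and Fem1a). The pattern was described from the same 7 regions in which it was seen, and it was not tested.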
